A study of Mus musculus with 12 samples.

Results

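Genes that act in the G1 phase of the cell cycle were followed in BMMCs, mast cells that develop when mouse bone marrow is cultured. They were chosen by symbol, as 10 of the 16234 genes in the table of read counts. They are the D cyclins *Ccnd1*, *Ccnd2* and *Ccnd3*, the kinases *Cdk4*, *Cdk6* and *Cdk2*, the inhibitors *Cdkn1a* and *Cdkn1b*, the ubiquitin ligase subunit *Skp2* and the transcription factor *E2f2*. RNA was sequenced in 12 libraries that form 6 groups of 2. The labels give the *Elk4* genotype as WT (wild type), HZ (heterozygous) or KO (knockout), and BMMCs of each were either untreated or stimulated through the IgE receptor FcϵRI. All donors were C57BL/6N mice aged 6 to 12 weeks, and the WT donors were littermates of the mutants. *Elk4* was deleted in the whole animal and not only in mast cells. All cells had grown for 4 to 8 weeks with IL-3 and SCF at 10 ng/ml each, and more than 80% were positive for both CD117 and FcϵRI. For stimulation, anti-DNP IgE was added overnight at 0.5 µg/ml and followed by the antigen DNP-HSA at 100 ng/ml for 1 h. No IgE or antigen is given for the untreated cells, and no group had IgE alone. Effects of the overnight IgE and of the antigen therefore cannot be told apart. Changes with antigen, as written below, are those with both. The labels do not say whether the 2 replicates came from separate animals or cultures, so p-values measure only the spread between these libraries.

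In G1, growth factors raise the D cyclins, which bind Cdk4 or Cdk6 and start the phosphorylation of the retinoblastoma protein. E2F factors are then released and switch on the genes of DNA synthesis, among them cyclin E, the partner of Cdk2. Cdkn1a (p21) and Cdkn1b (p27) bind cyclin and kinase complexes, and Skp2 marks Cdkn1b protein for degradation. In cultured mast cells, IL-3 and SCF drive division, while antigen acts through FcϵRI.

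Library totals lay between 29697958 and 35531667 counts on genes, and all 10 genes passed the filter on low counts. Counts were scaled by edgeR's TMM factors to CPM, which are normalised counts at a common library size, and a gene is said to rise, fall or differ where the quasi-likelihood test of edgeR gave an adjusted p below 0.05. *Elk4* itself was at 73.2 and 78.3 CPM in unstimulated WT, 93.2 and 86.0 CPM in HZ and 69.7 and 63.5 CPM in KO libraries. Its level thus did not follow the genotype labels, and reads summed over the gene do not reveal whether part of it was deleted. All 10 mast cell markers were read, with a sum of 46734 to 57444 CPM per library, while the 4 neutrophil markers in the table summed to at most 0.269 CPM and the 6 of macrophages and monocytes to 4.41 to 8.17 CPM. The 3 basophil markers summed to 465 to 674 CPM, highest in unstimulated HZ, nearly all of it *Cd200r3*, which mast cells also express. Of the 3 dendritic cell markers, *Flt3* and *Cd209a* were at or near 0, and *Itgax* was at 4.31 to 7.58 CPM in WT and at 0.791 to 1.84 CPM in HZ and KO. The part of these markers in the results was not tested. The 8 markers of proliferation (*Mki67*, *Top2a*, *Pcna*, *Mcm2*, *Ccna2*, *Ccnb1*, *Ccnb2* and *Cdk1*) moved with the groups. They summed to 1525 and 1543 CPM in unstimulated WT, to 614 and 608 CPM in HZ and to 801 and 791 CPM in KO. After stimulation the sums were 1611 and 1621 CPM in WT, 1486 and 1465 CPM in HZ and 920 and 933 CPM in KO. The markers did not all move the same way with antigen. In WT 2 of the 8 rose and 6 fell, where 22.4% of all genes tested rose and 22.9% fell. In KO 1 rose and 4 fell, where 20.4% of all genes rose and 20.5% fell. *Pcna* rose by 1.13 in WT and by 0.88 in KO on the log2 scale. None of the 8 was at 0 in any group, and their part in the results on the G1 genes was not tested. In bulk RNA, fewer cells that express a gene and less RNA of it per cell cannot be told apart.

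PCR primers exist for *Cdk2*, *Cdk6* and *E2f2* among the study's assays, and they are shown because they say which part of each transcript such an assay reads. Each was matched to GENCODE vM21 transcripts of build GRCm38. Printed 5′ to 3′, they were:
Cdk2 forward: cctgcttatcaatgcagaggg
Cdk2 reverse: gtgctgggtacacactaggtg
Cdk6 forward: tctcacagagtagtgcatcgt
Cdk6 reverse: cgaggtaagggccatctgaaaa
E2f2 forward: acggcgcaacctacaaagag
E2f2 reverse: gtctgcgtgtaaagcgaagtg
The *Cdk2* forward primer lies in the coding part of exon 4 at chr10:128702483-128702503 on the minus strand. The reverse primer matched exon 6 of transcript Cdk2-202 at chr10:128700099-128700119, for a product of 214 bases, and did not match Cdk2-201. Both *Cdk6* primers lie in coding sequence of the same exon, from chr5:3429033-3429053 to chr5:3429134-3429155 on the plus strand, with a product of 123 bases. Both *E2f2* primers lie in the coding part of exon 1, from chr4:136172814-136172833 to chr4:136172921-136172941 on the plus strand, with a product of 128 bases. The read counts used here sum over all transcripts of a gene.

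*E2f2* and *Cdk2* were the pair of the 10 genes with the highest Pearson r of log2 CPM over 12 libraries (0.878, given as a description). Their promoters are shown for that reason. *Ccnd1* and *Ccnd2* were nearly as close (0.875). RefSeq windows of build GRCm38.p6, from 250 bases before to 50 bases after a gene's start, were found for 8 of the 10 genes (12 windows). No window was found for *Ccnd1* or *Ccnd2*. Capitals mark the ETS core CCGGAA, the kind of letters that ETS factors such as ELK4 bind, and the E2F letters TTTCCCGC, TTTGGCGC, TTTCGCGC or TTTGCCGC, on either strand.
E2f2, chr4:136172024-136172323, plus strand: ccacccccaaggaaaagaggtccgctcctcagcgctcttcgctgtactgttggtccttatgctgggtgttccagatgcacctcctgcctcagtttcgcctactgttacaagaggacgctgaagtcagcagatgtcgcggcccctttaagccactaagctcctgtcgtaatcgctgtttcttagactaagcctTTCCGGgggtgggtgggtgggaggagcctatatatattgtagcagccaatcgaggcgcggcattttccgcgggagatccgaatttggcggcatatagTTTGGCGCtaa
Cdk2, chr10:128705002-128705301, minus strand: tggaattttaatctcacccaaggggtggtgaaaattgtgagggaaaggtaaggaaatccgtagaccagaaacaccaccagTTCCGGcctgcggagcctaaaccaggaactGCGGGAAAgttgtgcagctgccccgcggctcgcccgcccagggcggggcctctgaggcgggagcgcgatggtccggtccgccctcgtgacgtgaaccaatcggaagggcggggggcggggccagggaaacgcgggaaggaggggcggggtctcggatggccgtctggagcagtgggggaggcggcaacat
In the *E2f2* window shown, the ETS letters lie 58 to 53 bases before the start and the E2F letters 40 to 47 bases after it. A second *E2f2* window, at chr4:136180532-136180831, held neither and is not printed. In the *Cdk2* window the ETS letters lie 170 to 165 bases and the E2F letters 140 to 133 bases before the start. The ETS core was present in 3 of the 12 windows, the third being a *Ccnd3* window, against 14.9% of 32851 windows in the table. The E2F letters were present in 2 of the 12, against 2.26% of all windows. The E-box CACGTG was found 4 times in the *Cdk4* window and 1 time in the *Cdk6* window, and 7.15% of all windows hold it. GTAAACA was in 1 *Ccnd3* window (3.65% of all windows), while CCGGAAGT, TGACGTCA, TGAGTCA or TGACTCA, the NF-kB motif and the CArG motif were in none of the 12. A match of letters is a description of the window and not a binding site.

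Levels of different genes were compared as FPKM, which the authors scaled by gene length and library total. *Cdkn1a* was the most abundant of the 10 in every group, with means from 269 FPKM in unstimulated HZ to 1023 FPKM in stimulated WT. *Cdk4*, *Ccnd3* and *Ccnd2* followed, with means between 66.7 and 140 FPKM. Next came *Cdk6*, *Cdk2* and *Cdkn1b* at 6.67 to 41.5 FPKM, and *E2f2* and *Skp2* at 0.994 to 3.61 FPKM. *Ccnd1* was the lowest in every group, at 0.0931 to 0.633 FPKM. Neighbours in this order overlapped between libraries in 4 places, namely *Ccnd3* and *Cdk4* in unstimulated HZ, *Cdk6* and *Cdk2* in unstimulated KO, and, in stimulated KO, both *Cdk2* and *Cdk6* and *E2f2* and *Skp2*.

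**Figure D1:**
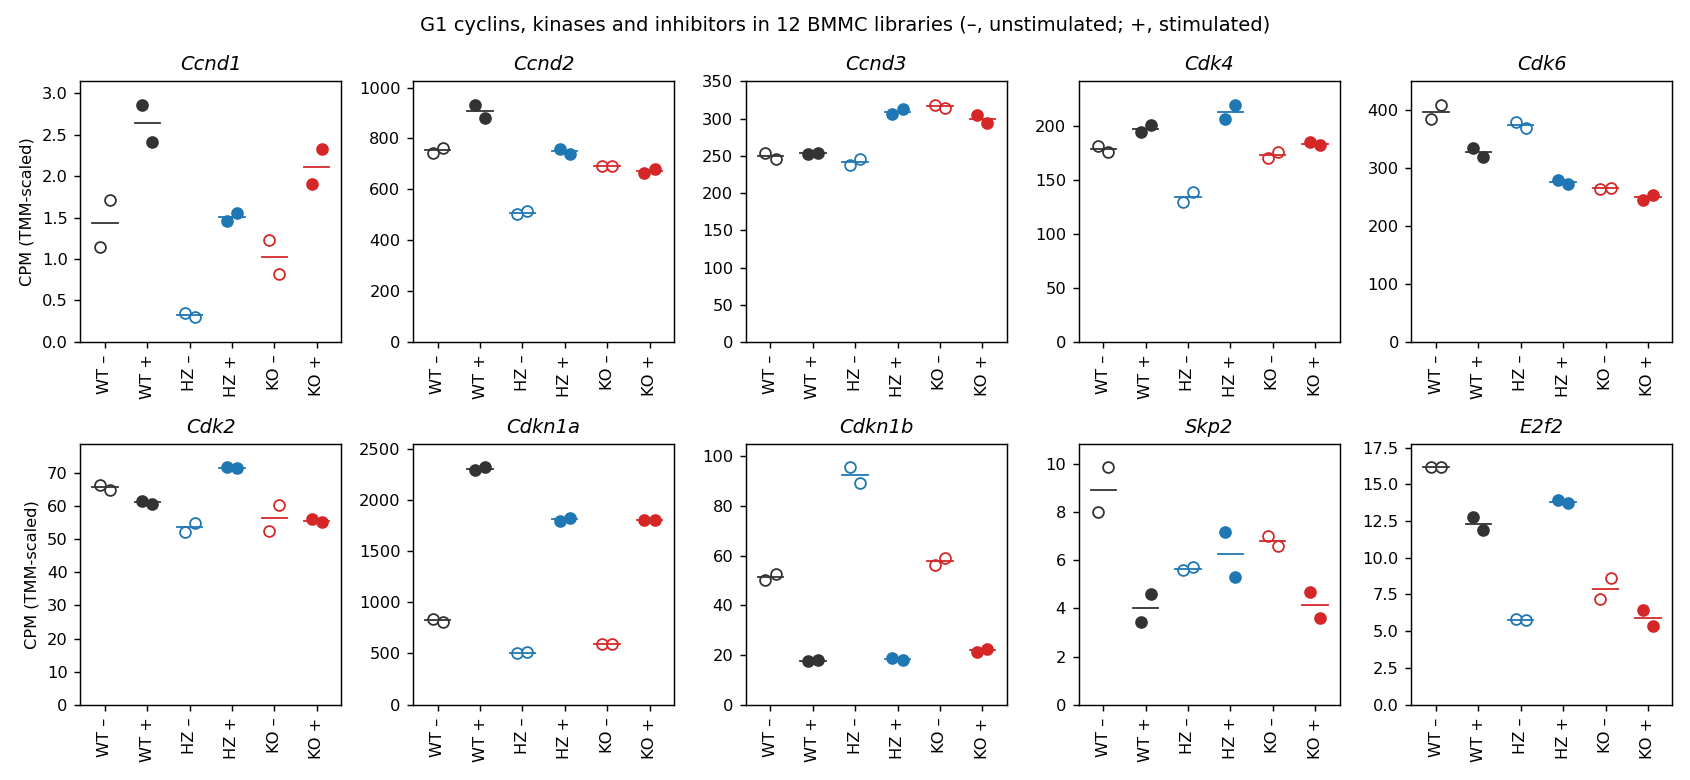
Level of each gene in CPM (linear axes from 0) in the 12 libraries, with open points for unstimulated (–) and filled points for stimulated (+) libraries and a line at the mean of each pair. *Cdkn1a* stands at 500 to 841 CPM in the unstimulated and at 1798 to 2317 CPM in the stimulated libraries, while *Cdkn1b* stands at 50.0 to 95.5 CPM in the former and at 17.7 to 22.4 CPM in the latter.

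Antigen raised *Cdkn1a* and lowered *Cdkn1b* in all 3 genotypes. In WT, 4 of the 10 rose, 4 fell and 2 did not pass, where 22.4% of the 12208 genes tested rose and 22.9% fell. In HZ, 7 rose, 2 fell and 1 did not pass, where 32.9% of all genes rose and 31.6% fell. In KO, 2 rose, 5 fell and 3 did not pass, where 20.4% of all genes rose and 20.5% fell. The KO counts were smaller with 1 library left out, with 3 that fell without replicate 1 of either KO state, and 1 that rose and 2 that fell without replicate 2 of either KO state. At 2-fold or more, 1 rose and 2 fell in WT, where 6.77% of all genes passed in either direction, 3 rose and 1 fell in HZ, where 14.3% passed, and 2 rose and 1 fell in KO, where 6.61% passed. The median log2 change of the 10 was -0.04 in WT, 0.49 in HZ and -0.06 in KO, and the median over all genes tested lay between -0.01 and -0.0048.

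The split between genes that rose and fell depended on the scaling. With library totals in place of TMM factors, the median log2 change of all genes moved to -0.32 in WT, -0.24 in HZ and -0.30 in KO. The 10 genes then split into 1 higher and 7 lower in WT, 7 higher and 2 lower in HZ and 1 higher and 8 lower in KO. Of all 12208 genes tested, 842 were then higher and 7397 lower in WT. In HZ 2447 were higher and 5902 lower, and in KO 858 were higher and 7296 lower. Responses of all 10 genes are therefore changes relative to the other genes of a library. The sign itself depended on the scaling for *Ccnd2*, *Ccnd3* and *Cdk4* in WT, *Cdk4* in KO and *Skp2* in HZ.

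**Figure D2:**
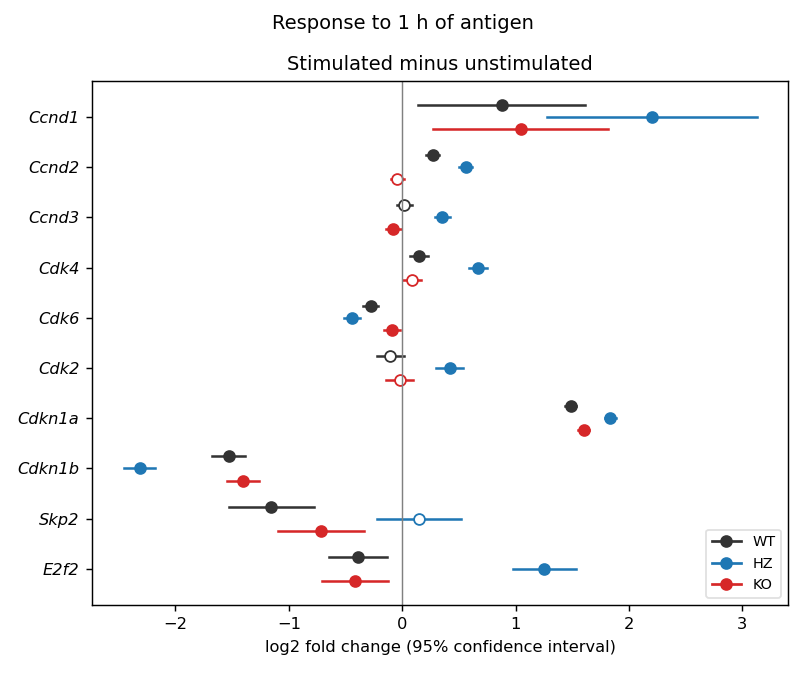
Log2 fold change of stimulated against unstimulated BMMCs, with 95% confidence intervals, in WT (black), HZ (blue) and KO (red). Filled points passed the adjusted p. *Cdkn1a* lies right of 0 and *Cdkn1b* left of 0 in all 3 genotypes, and *E2f2* lies left of 0 in WT and KO but right of it in HZ. Scaled by library totals, *Ccnd2*, *Ccnd3* and *Cdk4* of WT, *Cdk4* of KO and *Skp2* of HZ change to the left side of 0.

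Among the D cyclins, *Ccnd1* was barely expressed, with 10 to 85 counts per library. Unstimulated WT libraries held 38 and 60 reads, HZ libraries 12 and 10 reads and KO libraries 46 and 29 reads. Stimulated WT libraries held 85 and 72 reads, HZ libraries 48 and 46 reads and KO libraries 53 and 67 reads. Stimulated libraries were above the unstimulated ones of the same genotype without overlap, and unstimulated HZ libraries were lower than all others. *Ccnd1* rose with antigen by 0.88 on the log2 scale in WT (edgeR adjusted p = 0.0463), by 2.20 in HZ (adjusted p = 4.82e-05) and by 1.04 in KO (adjusted p = 0.025). The WT call was lost when any of 3 of the 4 WT libraries was left out (adjusted p up to 0.287), and the KO call without unstimulated or without stimulated KO replicate 2 (adjusted p up to 0.207). With library totals the changes were 0.57 in WT (adjusted p = 0.166) and 0.76 in KO (adjusted p = 0.0775). Unstimulated HZ was 4.37-fold below WT (log2 difference -2.13, standard error 0.46, edgeR adjusted p = 0.000113).

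*Ccnd2*, the D cyclin with the most reads, stood at 742 and 764 CPM in unstimulated WT, 504 and 513 CPM in HZ and 693 and 690 CPM in KO. After stimulation it stood at 932 and 881 CPM in WT, 760 and 739 CPM in HZ and 664 and 678 CPM in KO. HZ libraries were the lowest before antigen and KO libraries the lowest after it. *Ccnd2* rose in HZ by 0.56 on the log2 scale (standard error 0.03, edgeR adjusted p = 1.51e-22) and in WT by 0.27 (adjusted p = 2.31e-11), and the WT change became -0.04 (adjusted p = 0.202) with library totals. In KO the change was -0.04 (95% interval -0.10 to 0.01, edgeR adjusted p = 0.229). The response was smaller in KO than in WT by 0.31 (log2 difference of responses -0.31, edgeR adjusted p = 5.59e-08). It was larger in HZ than in WT by 0.29 (edgeR adjusted p = 3.51e-08). Against WT, *Ccnd2* was lower by 0.57 in HZ and by 0.12 in KO before antigen (log2 differences -0.57 and -0.12), and by 0.27 in HZ and by 0.43 in KO after it (-0.27 and -0.43), with edgeR adjusted p of at most 0.000285.

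*Ccnd3* differed in pattern from *Ccnd2*. It stood at 254 and 246 CPM in unstimulated WT, 238 and 247 CPM in HZ and 319 and 315 CPM in KO. Stimulated libraries held 253 and 254 CPM in WT, 306 and 313 CPM in HZ and 305 and 295 CPM in KO. KO libraries were high in both states, and HZ libraries moved from the level of WT to that of KO. The log2 response was 0.35 in HZ (edgeR adjusted p = 4.25e-13), and larger than in WT by 0.33 (edgeR adjusted p = 7.89e-08). In WT it was 0.02 (95% interval -0.05 to 0.09), which became -0.29 with library totals. The small fall in KO (log2 change -0.08, edgeR adjusted p = 0.0476) was lost when any single KO library was left out (adjusted p up to 0.347) and with DESeq2 (adjusted p = 0.105). *Ccnd3* was higher in KO than in WT by 0.34 before antigen (edgeR adjusted p = 2.49e-12) and by 0.24 after it (adjusted p = 4.54e-08) on the log2 scale.

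Of the kinases, *Cdk4* stood at 181 and 176 CPM in unstimulated WT, 129 and 138 CPM in HZ and 170 and 176 CPM in KO. Stimulated levels were 194 and 200 CPM in WT, 206 and 219 CPM in HZ and 185 and 182 CPM in KO. HZ had the lowest libraries before antigen and the highest after it. *Cdk4* rose by 0.67 on the log2 scale in HZ (standard error 0.04, edgeR adjusted p = 6.39e-20), which was 0.52 more than in WT (edgeR adjusted p = 6.63e-11). The WT change was 0.15 (edgeR adjusted p = 0.00175) and became -0.16 (adjusted p = 0.000279) with library totals, and the KO change of 0.08 (adjusted p = 0.0799) became -0.20. Unstimulated HZ was lower than WT by 0.41 (log2 difference -0.41, edgeR adjusted p = 1.49e-12), while the difference of KO from WT was -0.04 (95% interval -0.12 to 0.03). After antigen, KO differed from WT by -0.11 (edgeR adjusted p = 0.0277) and HZ by 0.11 (adjusted p = 0.0247). Both calls were lost when single libraries were left out, with differences of -0.13 to -0.08 in KO and 0.07 to 0.15 in HZ. Each was also lost in a fit that kept all libraries of the groups compared, the HZ call with DESeq2 (adjusted p = 0.111).

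*Cdk6*, the other partner of the D cyclins, was at 385 and 410 CPM in unstimulated WT, 380 and 370 CPM in HZ and 264 and 266 CPM in KO. After antigen it was at 335 and 320 CPM in WT, 279 and 272 CPM in HZ and 245 and 254 CPM in KO. KO libraries were the lowest in both states, with no overlap with the other genotypes. In unstimulated cells KO was 1.5-fold below WT (log2 difference -0.58, standard error 0.03, edgeR adjusted p = 7.38e-20) and 1.42-fold below HZ (-0.50, adjusted p = 3.1e-17). In stimulated cells KO differed from WT by -0.39 on the log2 scale (edgeR adjusted p = 1.64e-13) and HZ by -0.25 (adjusted p = 6.57e-08). *Cdk6* fell with antigen by 0.28 in WT (log2 change -0.28, edgeR adjusted p = 1.37e-09) and by 0.44 in HZ (-0.44, adjusted p = 5.96e-16). The KO change of -0.09 (edgeR adjusted p = 0.0375) was not called with DESeq2 (adjusted p = 0.114) or without KO libraries in 3 of 4 cases (adjusted p up to 0.318). The response in KO was 0.19 above that in WT (edgeR adjusted p = 0.00553), and this call was lost in limma on FPKM (adjusted p up to 0.0956) and when any of 3 libraries was left out, with 0.12 (adjusted p = 0.167) without unstimulated WT replicate 2.

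*Cdk2* is the kinase partner of cyclins E and A. Unstimulated libraries held 66.5 and 65.1 CPM in WT, 52.2 and 55.0 CPM in HZ and 52.6 and 60.4 CPM in KO. Stimulated libraries held 61.7 and 60.6 CPM in WT, 71.8 and 71.6 CPM in HZ and 56.2 and 55.1 CPM in KO. WT was highest before antigen and HZ after it. *Cdk2* rose in HZ by 0.42 on the log2 scale (edgeR adjusted p = 2.88e-08), and the response was 0.52 above that in WT (edgeR adjusted p = 1.11e-06). The change was -0.10 in WT (95% interval -0.22 to 0.01) and -0.02 in KO (95% interval -0.14 to 0.10). With library totals these became -0.41 (adjusted p = 4.68e-08) and -0.31 (adjusted p = 1.52e-05). Unstimulated HZ was lower than WT by 0.30 (log2 difference -0.30, edgeR adjusted p = 3.69e-05). Unstimulated KO was lower by 0.22 (-0.22, edgeR adjusted p = 0.00182), and without unstimulated KO replicate 1 the difference was -0.12 (adjusted p = 0.171).

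The inhibitors had the lowest adjusted p of the 10 responses in each genotype. *Cdkn1a*, which encodes p21, stood at 841 and 806 CPM in unstimulated WT, 500 and 512 CPM in HZ and 592 and 595 CPM in KO. After 1 h of antigen it stood at 2295 and 2317 CPM in WT, 1798 and 1820 CPM in HZ and 1800 and 1800 CPM in KO. Every stimulated library was above every unstimulated one, and WT was the highest genotype in both states. The rise was 2.80-fold in WT (log2 change 1.49, standard error 0.02, edgeR adjusted p = 1.34e-42), 3.57-fold in HZ (1.84, adjusted p = 2.95e-46) and 3.03-fold in KO (1.60, adjusted p = 7.5e-44). It was larger in HZ than in WT by 0.35 on the log2 scale (edgeR adjusted p = 5.07e-12). The difference of 0.12 between the KO and WT responses (edgeR adjusted p = 0.0211) was lost when single libraries were left out, in 6 of 8 cases (adjusted p up to 0.161).

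Before antigen, *Cdkn1a* was lower than in WT by 0.70 in HZ (log2 difference -0.70, edgeR adjusted p = 2.32e-28) and by 0.47 in KO (-0.47, adjusted p = 1.2e-21). After antigen the differences were -0.35 in HZ (edgeR adjusted p = 6.96e-17) and -0.36 in KO (adjusted p = 1.87e-17). Stimulated KO and HZ overlapped, with a log2 difference of -0.0071 (95% interval -0.06 to 0.04) that turned to 0.000358 with DESeq2's size factors. *Mdm2*, like *Cdkn1a* a target of p53, was likewise highest in WT, with 270 and 272 CPM in unstimulated WT, 143 and 140 CPM in HZ and 143 and 136 CPM in KO. It rose with antigen by 2.01 on the log2 scale in WT, 1.80 in HZ and 1.67 in KO, with edgeR adjusted p of at most 1.47e-41.

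*Cdkn1b*, which encodes p27, ran the other way. It stood at 50.0 and 52.6 CPM in unstimulated WT, 95.5 and 89.4 CPM in HZ and 56.2 and 59.1 CPM in KO. With antigen it dropped to 17.7 and 17.8 CPM in WT, 19.0 and 18.1 CPM in HZ and 21.2 and 22.4 CPM in KO. The unstimulated HZ libraries were the highest, and all 6 stimulated libraries lay within 17.7 to 22.4 CPM. The fall was 2.89-fold in WT (log2 change -1.53, standard error 0.07, edgeR adjusted p = 1.82e-23), 4.98-fold in HZ (-2.32, adjusted p = 1.44e-31) and 2.64-fold in KO (-1.40, adjusted p = 1.73e-22). In HZ it was larger than in WT by 0.78 (log2 difference of responses -0.78, edgeR adjusted p = 1.06e-08). For KO against WT the difference of responses was 0.13 (95% interval -0.07 to 0.33).

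Unstimulated HZ held 1.80 times the *Cdkn1b* of WT (log2 difference 0.85, standard error 0.06, edgeR adjusted p = 2.23e-16), and after antigen the difference was 0.06 (95% interval -0.10 to 0.22). KO was above WT by 0.30 after antigen (edgeR adjusted p = 0.00209). The unstimulated difference of 0.17 between KO and WT (edgeR adjusted p = 0.0261) was not called with library totals (adjusted p = 0.0544), with DESeq2 (adjusted p = 0.0642), or without unstimulated WT replicate 1 or KO replicate 2 (adjusted p up to 0.203). The order of genotypes in unstimulated cells, HZ then KO then WT, was the reverse of that of the summed proliferation markers. Taken singly, 5 of the 8 markers were higher and 2 lower in unstimulated KO than in HZ, where 23.4% of all genes were higher and 21.8% lower.

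*Skp2*, the substrate receptor of the ligase that acts on Cdkn1b protein, was low, with 102 to 345 counts per library. It stood at 8.00 and 9.86 CPM in unstimulated WT, 5.59 and 5.73 CPM in HZ and 7.01 and 6.60 CPM in KO. After stimulation it stood at 3.43 and 4.60 CPM in WT, 7.19 and 5.31 CPM in HZ and 4.67 and 3.61 CPM in KO. Antigen lowered it in WT and KO without overlap, while the HZ libraries overlapped. The fall was 2.22-fold in WT (log2 change -1.15, standard error 0.19, edgeR adjusted p = 1.17e-06) and 1.64-fold in KO (-0.72, adjusted p = 0.00177), the latter with an adjusted p of 0.062 without stimulated KO replicate 2. In HZ the change was 0.15 (95% interval -0.22 to 0.52), which turned to -0.08 with library totals and to -0.09 without stimulated HZ replicate 1. The responses of HZ and WT differed by 1.30 (standard error 0.26, edgeR adjusted p = 6.29e-05), and those of KO and WT by 0.44 (adjusted p = 0.372). Stimulated HZ was 1.56-fold above WT (edgeR adjusted p = 0.00722), a call that was lost without stimulated WT replicate 1 or stimulated HZ replicate 1 (adjusted p up to 0.199). Unstimulated HZ was lower than WT by 0.66 (log2 difference -0.66, edgeR adjusted p = 0.00159), with -0.50 (adjusted p = 0.0555) without unstimulated WT replicate 2.

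*E2f2*, an activating E2F factor, was lower in KO than in WT in both states. Its unstimulated levels were 16.1 and 16.2 CPM in WT, 5.85 and 5.73 CPM in HZ and 7.17 and 8.62 CPM in KO. Its stimulated levels were 12.8 and 11.9 CPM in WT, 13.9 and 13.7 CPM in HZ and 6.47 and 5.35 CPM in KO. KO libraries were below WT libraries in both states, whereas HZ libraries were lowest before antigen and highest after it. KO was 2.05-fold below WT before antigen (log2 difference -1.03, standard error 0.13, edgeR adjusted p = 4.67e-09) and 2.09-fold below it after antigen (-1.06, adjusted p = 2.36e-08). With single libraries left out the differences were -1.17 to -0.90 and -1.20 to -0.93. HZ was 2.79-fold below WT before antigen (-1.48, edgeR adjusted p = 4.33e-13), and after it the difference was 0.16 (95% interval -0.10 to 0.42). Stimulated KO was 2.34-fold below stimulated HZ (edgeR adjusted p = 1.18e-09).

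With antigen, *E2f2* rose 2.39-fold in HZ (log2 change 1.25, standard error 0.14, edgeR adjusted p = 5.16e-11), and the response was 1.64 above that in WT (edgeR adjusted p = 4.86e-10). It fell by 0.39 in WT (log2 change -0.39, edgeR adjusted p = 0.0103) and by 0.42 in KO (-0.42, adjusted p = 0.0176). These 2 calls were lost without replicate 2 of either WT state (adjusted p up to 0.0877) or of either KO state (adjusted p up to 0.234). The responses of KO and WT differed by -0.03 (95% interval -0.42 to 0.36), and this difference took the opposite sign, up to 0.11, in limma on FPKM.

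**Figure D3:**
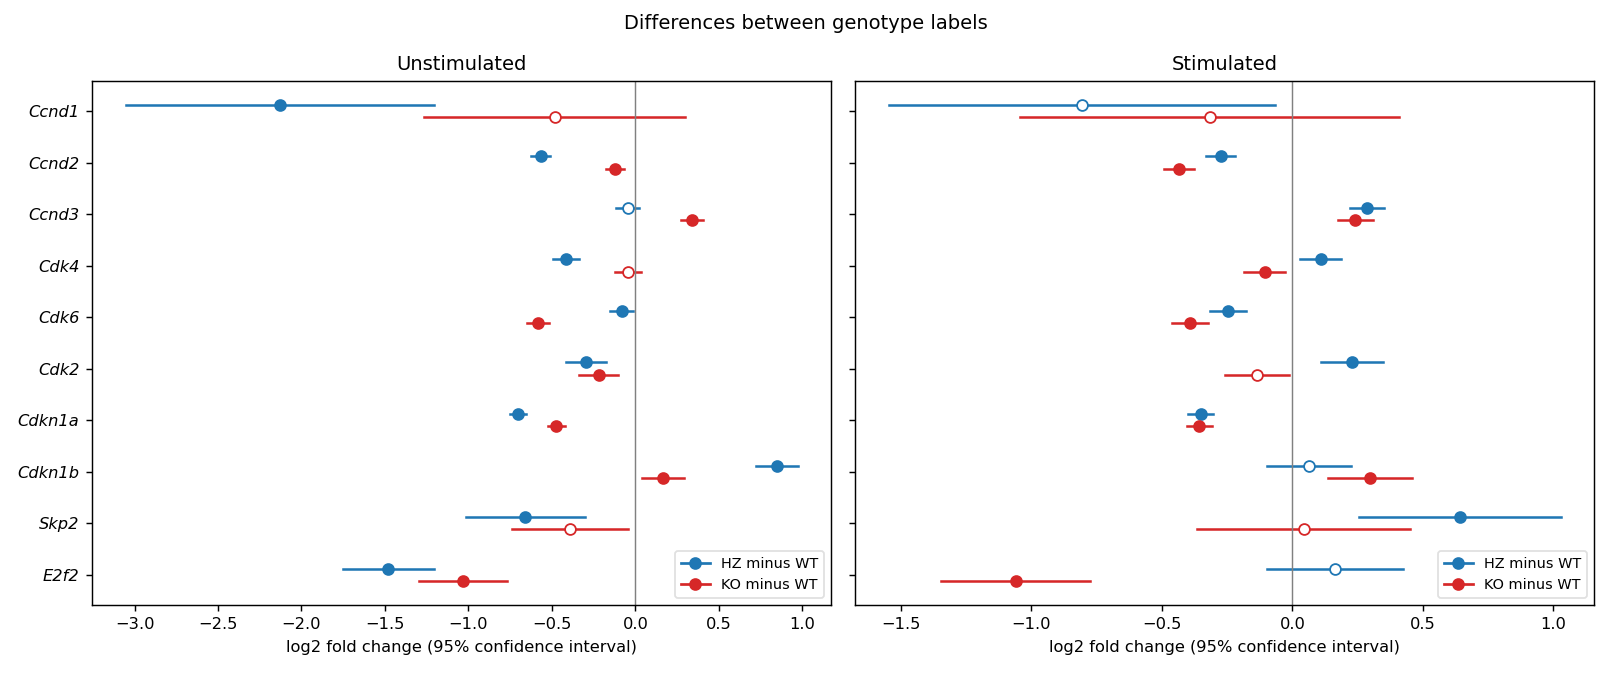
Log2 difference of HZ (blue) and KO (red) from WT, with 95% confidence intervals, in unstimulated (left) and stimulated (right) BMMCs. The horizontal scales of the panels differ, and filled points passed the adjusted p. *E2f2* of KO lies at -1.03 and -1.06 in the respective panels, and *E2f2* of HZ at -1.48 and 0.16.

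Counted over the 10 genes, unstimulated HZ had 8 lower and 1 higher than WT, where 26.0% of all genes were lower and 25.4% higher. Unstimulated KO had 5 lower and 2 higher than WT, where 21.7% of all genes were lower and 22.9% higher. It had 6 higher and 2 lower than HZ, where 23.4% of all genes were higher and 21.8% lower. In stimulated cells, KO had 5 lower and 2 higher than WT, where 19.2% of all genes were lower and 21.2% higher. Stimulated HZ had 3 lower and 4 higher than WT, where 16.5% of all genes were lower and 18.4% higher. Stimulated KO differed from HZ in 7 of the 10 (6 lower and 1 higher), where 24.9% of all genes differed. These comparisons share libraries and are given side by side only. The median log2 difference from WT over the 10 was -0.49 in unstimulated HZ and -0.31 in unstimulated KO, against 0.0018 and 0.02 over all genes. After antigen it was 0.09 in HZ and -0.23 in KO, against 0.02 in each over all genes. The response of HZ was above that of WT in 7 of the 10 and below it in 2, where 19.9% of all genes were above and 18.6% below. The response of KO was above that of WT in 2 and below it in 1, where 5.44% of all genes were above and 3.83% below. With any 1 of the 8 WT and KO libraries left out, at most 1 was above it, and 0 without stimulated KO replicate 2. Other counts also moved with 1 library left out, and only the larger relative changes are listed here. Higher in unstimulated KO than in WT was 1 gene without unstimulated WT replicate 1 or KO replicate 2, and higher in stimulated HZ than in WT were 2 without stimulated WT replicate 1. Higher in stimulated KO than in HZ were 0 without replicate 2 of either, and below the WT response was 1 HZ response without replicate 1 of either WT state.

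Shares within a family do not depend on the scaling of libraries. *Ccnd3* made up 51.3% to 61.2% of the D cyclin FPKM in unstimulated and 47.0% to 60.0% in stimulated libraries, and *Ccnd2* nearly all of the rest. WT libraries had the lowest *Ccnd3* share in either state, with 52.9% and 51.3% unstimulated and 47.0% and 48.5% stimulated. In HZ it was 60.7% and 61.2% before and 56.8% and 58.1% after antigen, and in KO 60.1% and 59.9% before and 60.0% and 58.6% after. Averaged over the genotypes it was 2.85 points lower with antigen (mean 57.7% unstimulated and 54.8% stimulated, exact permutation test within genotypes, two-sided adjusted p = 0.0231 over 5 shares). The *Ccnd1* share was at most 0.354% in any library.

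*Cdk4* made up 80.0% and 78.5% of the *Cdk4* and *Cdk6* FPKM in unstimulated WT libraries, 74.3% and 76.1% in HZ libraries and 84.6% and 84.9% in KO libraries. After antigen, WT libraries had a share of 83.1% and 84.2%, HZ libraries one of 86.3% and 87.3% and KO libraries one of 86.6% and 85.9%. The mean rose by 5.82 points from 79.7% to 85.6% (exact permutation test, adjusted p = 0.0154). *Cdkn1a* made up 95.2% and 94.8% of the *Cdkn1a* and *Cdkn1b* FPKM in unstimulated WT libraries, 86.1% and 87.1% in HZ libraries, 92.6% and 92.2% in KO libraries and 99.0% to 99.4% in all stimulated libraries. That mean rose by 7.83 points from 91.3% to 99.2% (exact permutation test, adjusted p = 0.0154). For both shares, every stimulated library was above every unstimulated library of its genotype, and 0.00926 is the smallest p the 216 relabellings allow before adjustment.

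**Figure D4:**
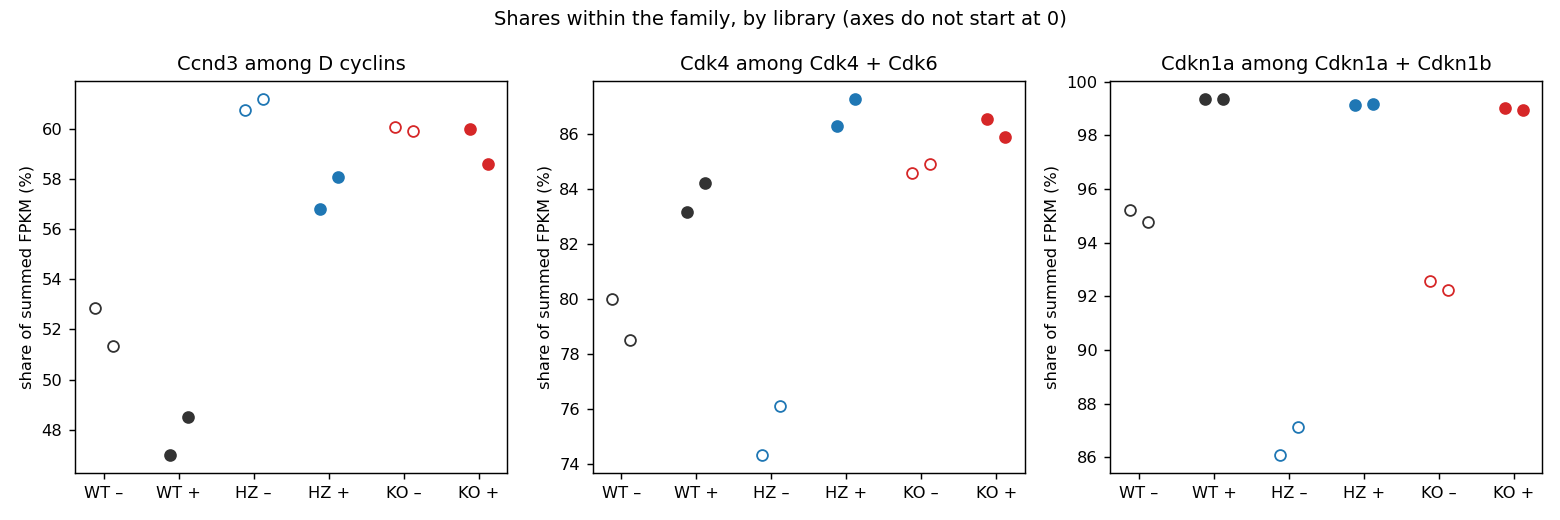
Share in percent of the summed FPKM of a family, in each of the 12 libraries (open, unstimulated; filled, stimulated; the axes do not start at 0). The *Cdkn1a* share is 86.1% to 95.2% before antigen and 99.0% to 99.4% after it, and the *Cdk4* share is above the unstimulated libraries of its genotype in all 6 stimulated libraries.

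Over the 12 libraries, *E2f2* followed the sum of the 8 proliferation markers with a Pearson r of 0.89 on the log2 scale, *Ccnd2* with 0.89, *Cdk4* with 0.81, *Cdk2* with 0.80, *Ccnd1* with 0.75 and *Cdkn1a* with 0.69. *Cdkn1b* ran against it with -0.69, and r was 0.12 for *Cdk6*, 0.06 for *Skp2* and -0.06 for *Ccnd3*. The libraries form 6 pairs and share their scaling, so these values are descriptions. All 8 markers were lower than in WT in unstimulated HZ (26.0% of all genes) and in unstimulated KO (21.7% of all genes). With antigen, 7 of the 8 rose and 0 fell in HZ, where 32.9% of all genes rose and 31.6% fell. In WT 2 rose and 6 fell (22.4% and 22.9% of all genes), and in KO 1 rose and 4 fell (20.4% and 20.5%).

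**Figure D5:**
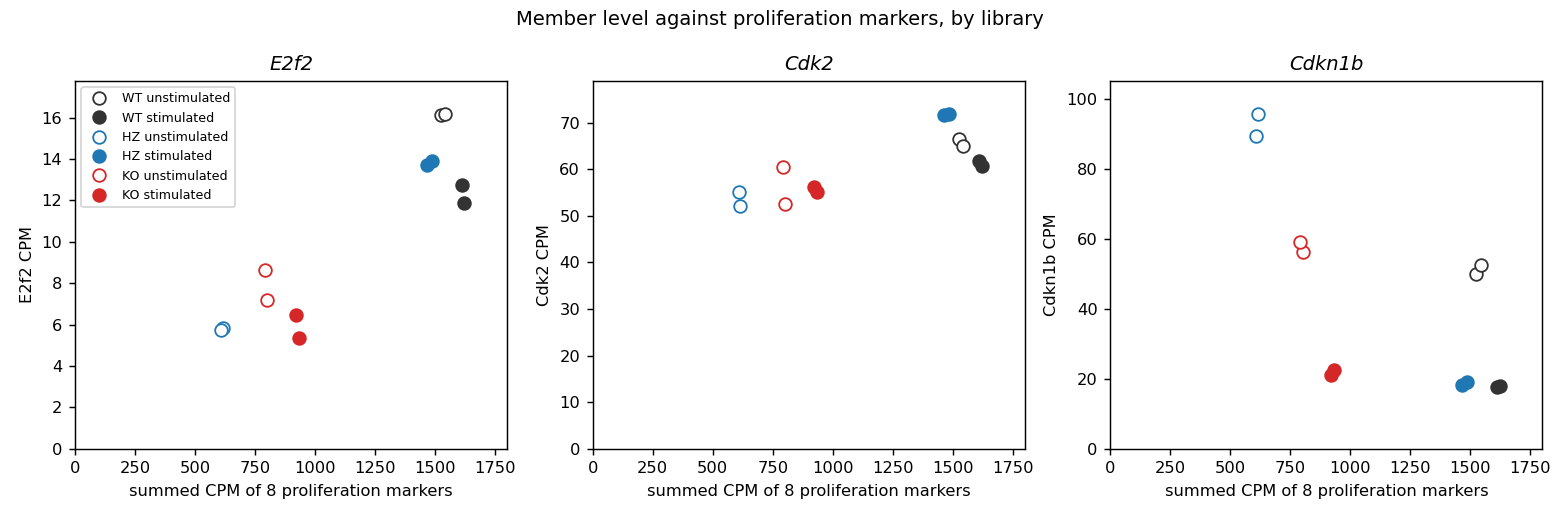
CPM of *E2f2*, *Cdk2* and *Cdkn1b* against the summed CPM of 8 proliferation markers, with a point for each of the 12 libraries (open, unstimulated; filled, stimulated). The 2 unstimulated HZ libraries (blue, open) are at 608 and 614 on the horizontal axis and the 2 stimulated HZ libraries at 1465 and 1486, with *E2f2* at 5.73 to 5.85 and 13.7 to 13.9 CPM.

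Of 33 other genes of the G1 to S transition, 32 could be tested (*Cdkn1c* was too low). Antigen raised 9 and lowered 9 of them in WT, where 22.4% of all genes rose and 22.9% fell. It raised 20 and lowered 7 in HZ (32.9% and 31.6% of all genes), and raised 8 and lowered 6 in KO (20.4% and 20.5% of all genes). Cyclin E genes, whose products activate Cdk2, were among those that rose in HZ. *Ccne1* went from 4.69 and 5.25 CPM to 15.1 and 19.1 CPM (log2 change 1.78, edgeR adjusted p = 1.82e-15) and *Ccne2* from 5.33 and 5.22 CPM to 16.7 and 13.8 CPM (1.54, adjusted p = 4.61e-13). *Cdc25a*, a phosphatase that activates Cdk2, rose in HZ by 1.05 (edgeR adjusted p = 3.79e-10). Among the 9 other E2F and DP genes, 7 rose and 0 fell in HZ, 3 rose and 3 fell in WT, and 2 rose and 1 fell in KO by the same test, beside the shares of all genes just given. *E2f1* rose in HZ by 1.24 and the repressor *E2f7* by 1.28 on the log2 scale (edgeR adjusted p = 6.36e-23 and 1.29e-13). *Cks1b*, the cofactor of Skp2, rose in HZ from 11.3 and 12.5 CPM to 27.3 and 26.4 CPM (1.17, edgeR adjusted p = 7.31e-15). *Myc* rose in all 3 genotypes, by 0.94 on the log2 scale in WT (edgeR adjusted p = 1.45e-18), 1.41 in HZ (adjusted p = 3.78e-25) and 1.08 in KO (adjusted p = 2.05e-20).

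Before antigen, 15 of the 32 were lower and 5 higher in HZ than in WT, where 26.0% of all genes were lower and 25.4% higher. In KO, 18 were lower and 3 higher than in WT, where 21.7% of all genes were lower and 22.9% higher. *Ccne1* was 2.78-fold and *Cks1b* 2.53-fold lower in HZ (edgeR adjusted p = 1.79e-12 and 1.05e-16). *Rbl1*, which encodes the pocket protein p107, was 2.03-fold lower in HZ (edgeR adjusted p = 1.05e-21), and *E2f7* was 2.93-fold lower in HZ and 2.10-fold lower in KO (adjusted p = 2.07e-16 and 1.13e-11). *Cdkn2c*, an inhibitor of Cdk4 and Cdk6, was at 29.3 and 30.5 CPM in WT, 13.5 and 13.6 CPM in HZ and 12.6 and 12.2 CPM in KO. It was 2.21-fold below WT in HZ and 2.42-fold below WT in KO (edgeR adjusted p = 4.92e-14 and 2.19e-15). After antigen, 18 of the 32 were lower and 2 higher in KO than in WT (19.2% and 21.2% of all genes), and 9 were lower and 9 higher in HZ (16.5% and 18.4% of all genes). The related inhibitor *Cdkn2b* rose with antigen in all 3 genotypes, by 1.00 on the log2 scale in WT (edgeR adjusted p = 1.99e-08), 0.52 in HZ (adjusted p = 0.000965) and 1.03 in KO (adjusted p = 1.42e-08).

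The genes with the most similar pattern over the 12 libraries were found among 8691 candidates by Pearson's r of log2 CPM. *E2f2* was closest to *Melk* and *Tmpo* (r = 0.99 and 0.98), *Cdkn1a* to *Tsc22d2* and *Zfp622* (both 0.997) and *Cdkn1b* to *B4galt1* and *Cnr2* (both 0.995). *Cdk4* was closest to *Tada2a* and *Hat1* (both 0.99), *Cdk6* to *Ankrd44* and *Tmf1* (0.99 and 0.97), *Cdk2* to *Csrp1* and *Dsn1* (both 0.93), *Ccnd2* to *Hnrnpul2* and *Smarca5* (0.97 and 0.96) and *Ccnd3* to *Micos13* and *Guk1* (0.98 and 0.97). *Ccnd1* was closest to *Dusp8* and *Mdn1* (both 0.96) and *Skp2* to *Sart3* and *Slc39a9* (0.91 and 0.90), both at low counts. Within the 10 genes, *Cdkn1a* and *Cdkn1b* were the most opposed pair (r = -0.98), followed by *Ccnd3* and *Cdk6* (-0.92).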

How the data were processed

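RNA-seq of BMMCs was used, with 12 libraries in 6 groups of 2. The authors deposited raw counts per gene, and the submitters' processing notes name fastp, HISAT2 and HTSeq and build GRCm39. The annotation and the strand setting are not given in the sources used here, so overlapping genes cannot be told apart. The authors also deposited FPKM values, which equalled count over gene length and library total. Counts were tested with edgeR 4.0.16 (R 4.3.3): filterByExpr left 12208 of 16234 genes, TMM factors lay within 1.08 to 1.12 without antigen and within 0.902 to 0.924 with it, and a quasi-likelihood model with a mean per group was fitted (biological coefficient of variation 4.01%). P-values were two-sided and Benjamini-Hochberg adjusted over all genes tested. An adjusted p below 0.05 was required, and a fold threshold of 2 (in stimulated genotype comparisons 1.5 or 0.66) was counted beside it. Shares of FPKM were compared by exact permutation within genotypes. The genes and gene lists were chosen with earlier results of these data known. Other genes of the G1 to S transition were named where they passed the 2-fold threshold. Similar genes needed a mean log2 CPM of at least 3, and the 2 with the highest r were named. Alternatives were DESeq2 1.42.0 and its size factors, library totals, other filters, limma 3.58.1 on log2(FPKM + 1) or log2(FPKM + 0.1), replicate blocks, fits of only the groups compared, and leaving out single libraries. A fit without both HZ groups was added after seeing the data. Scripts were tested on simulated data.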

Additional observations from a re-analysis of the deposited data

Results flagged for a closer look

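With groups of 2, no library could be tested as an outlier, and the results listed here are responses that differed between genotypes by an interaction test in edgeR's quasi-likelihood model (adjusted p below 0.05). The response in HZ minus the response in WT, on the log2 scale, was 1.64 for *E2f2*, 1.30 for *Skp2*, 0.52 for *Cdk2*, 0.52 for *Cdk4*, 0.35 for *Cdkn1a*, 0.33 for *Ccnd3* and 0.29 for *Ccnd2*. It was -0.78 for *Cdkn1b* and -0.16 for *Cdk6*, and the *Cdk6* call was lost with library totals (adjusted p = 0.149), in limma on FPKM (adjusted p up to 0.353) and without replicate 1 of either WT state (adjusted p up to 0.068). The unstimulated HZ libraries stood apart in some of these genes, since their *Cdk4* and *Ccnd2* were the lowest and their *Cdkn1b* the highest of the 12 libraries. Their *Ccnd1* was also the lowest, at 12 and 10 reads, but its responses in HZ and WT did not differ by this test (adjusted p = 0.0738). The response in KO minus the response in WT was -0.31 for *Ccnd2*, 0.19 for *Cdk6* and 0.12 for *Cdkn1a*. With limma on FPKM the adjusted p was up to 0.0956 for the *Cdk6* difference and up to 0.05003 for the *Cdkn1a* difference. With single libraries left out these differences ranged from 0.12 to 0.23 and from 0.084 to 0.12. The 8 proliferation markers also responded more in HZ than in WT, by 0.48 to 1.45 on the log2 scale, as did 19.9% of all genes. Their part in these differences was not tested.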

How the results depend on the processing

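With 2 libraries per group, precision rests on the spread shared across groups, and a lone library left in a group was assumed to vary like the others. Of the values of single genes under alternatives that kept all libraries of the groups compared, 1242 kept their direction and side of the threshold, 104 lost and 27 gained a call, and 25 changed sign. These totals include 2 stricter thresholds, which cannot change a sign or add a call. At an adjusted p below 0.01, 97 stayed and 13 lost a call, and with the fold threshold 48 stayed and 62 lost one. With library totals, 1 gene rose and 7 fell in WT, 1 rose and 8 fell in KO, 1 was higher in unstimulated KO than in WT and 1 response was more negative in HZ than in WT. Of all 12208 genes tested, 842 rose and 7397 fell in WT, and 858 rose and 7296 fell in KO. In unstimulated KO 2511 were higher than in WT, and 1721 responses were more negative in HZ. Limma on FPKM gave 1 or 2 higher and 7 lower in WT, 1 higher and 8 lower in KO, 1 higher in unstimulated KO, and 1 or 0 responses more positive in KO and 1 more negative in HZ. With library totals or limma on FPKM, the sign changed for *Ccnd2* (-0.040), *Ccnd3* (-0.29 and -0.28) and *Cdk4* (-0.16) in WT. It also changed for *Cdk4* (-0.20) in KO, *Skp2* (-0.083, -0.060 and -0.10) in HZ and the *E2f2* difference of responses of KO and WT (0.11 and 0.017). DESeq2 and its size factors gave 3 lower in KO, 1 higher in unstimulated KO with the Wald test, and a *Cdkn1a* difference of stimulated KO and HZ of 0.000358 and 0.000377. Of all 12208 genes tested, 2177 fell in KO with the Wald test and 2337 with the size factors. The Wald test called 2438 higher in unstimulated KO than in WT. A fit of only the groups compared called 0 of the G1 genes higher in stimulated KO than in HZ, where 1600 of all 11544 genes were higher. The cause of these changes was not tested, beyond the shift of all genes given for library totals.

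At an adjusted p below 0.01, 1 gene rose and 2 fell in KO, 1 was higher in unstimulated KO than in WT, 0 were higher in stimulated KO than in HZ and 1 response was more positive in KO than in WT. With the fold threshold, 1 rose and 2 fell in WT, 3 rose and 1 fell in HZ and 1 fell in KO. Against WT, 0 were higher and 1 lower in KO in either state, 0 higher and 2 lower in unstimulated HZ, and 1 higher and 0 lower in stimulated HZ. Against HZ, 1 was higher and 0 lower in unstimulated KO and 0 higher and 1 lower in stimulated KO. Of the responses, 0 differed between KO and WT, and 2 were more positive and 0 more negative in HZ. At the fold threshold, shares over all genes were given above only for the changes with antigen. The other counts at these stricter thresholds have no share beside them and show only how the calls moved.

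With single libraries left out, 1 to 2 genes rose and 2 to 3 fell in KO, 1 to 2 were higher in unstimulated KO than in WT, 2 to 4 were higher in stimulated HZ than in WT, and 0 to 1 were higher in stimulated KO than in HZ. Responses more positive in KO than in WT were 0 to 1 and those more negative in HZ 1 to 2. The counts just given have no share over all genes beside them and show only how the calls moved. Smaller changes of other counts are not listed. Signs changed among values that had not passed, with ranges of -0.089 to 0.35 for *Skp2* in HZ, -0.12 to 0.080 for *Cdk2* in KO, -0.025 to 0.17 for *Cdk2* between unstimulated KO and HZ, and -0.15 to 0.27 for *Skp2* between stimulated KO and WT. The KO minus WT responses ranged from -0.17 to 0.11 for *E2f2*, from -0.18 to 0.49 for *Ccnd1* and from -0.015 to 0.18 for *Cdk2*.

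Replicate numbers are not stated to pair libraries, and the correlations of replicate differences between groups lay between -0.108 and 0.174. With a replicate block the *Ccnd1* response in WT was not called (adjusted p = 0.051, and 0.0588 with the block within genotypes), so 3 genes rose and 4 fell there, and no other count of calls changed.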
